A study of Mus musculus with 4 samples.

Results

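Genes of sterol and fatty acid synthesis under the control of the sterol regulatory element-binding proteins (SREBPs) were examined in group 2 innate lymphoid cells (ILC2), tissue-resident lymphocytes that secrete type 2 cytokines, sorted from mouse adipose tissue. The 38 genes were chosen by name and comprise the SREBP regulators, the enzymes of the mevalonate and sterol arm, a pair of sterol transport genes and the enzymes of the fatty acid arm. Of these, 29 were found in the deposited table of 10941 genes, and 26 passed a filter on low counts and were tested among 8753 genes. Dhcr7, Me1 and Scd1 were in the table but too scarce to be tested. The levels of Acat2, Mvd, Fdps, Sqle, Tm7sf2, Tmem97, Acss2, Elovl1 and Fads2 were not analysed here.

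RNA sequencing libraries were named KO or WT, with 2 libraries in each group. In the series' design KO stands for mice that carry floxed Rptor alleles (Rptorf/f) and WT for mice without them. Rptor encodes Raptor, the defining subunit of the growth-promoting kinase complex mTORC1. Mice of both groups carried the Il5RFP-cre (R5/+) allele, a Cre recombinase driven from the Il5 locus, so floxed sequence is removed where Il5 is or was expressed. In each of the 4 samples the title contradicts the library name: libraries named KO are titled Rptor+/+ and libraries named WT are titled Rptorf/f. The groups are therefore called KO-named and WT-named, and every log2 fold change is KO-named minus WT-named. Replicates are called 1 and 3 after the numbers of their columns, whereas the sample labels number them 1 and 2. The columns numbered 3 are thus tied to a group by the prefix of their name alone, and to no labelled sample. The sources used here do not give the age or sex of the mice, the sort gate or any pooling of animals. Whether replicate libraries stem from different mice is not stated, so the p-values reflect the spread among these libraries alone, which may be technical.

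SREBPs are made as precursors in the membrane of the endoplasmic reticulum. Scap escorts them to the Golgi when sterols are scarce, Insig proteins hold the Scap and SREBP pair back when sterols are plentiful, and the released fragment enters the nucleus and binds sterol regulatory elements in the promoters of its targets. SREBP-2, from Srebf2, acts mainly on cholesterol synthesis, and SREBP-1c, from Srebf1, mainly on fatty acid synthesis. mTORC1 is known to promote SREBP activity, in part by restraining lipin 1, and lymphocytes draw on both arms for membrane when they grow and divide. The series was set up to compare ILC2 with and without mTORC1 signalling. Which of these groups lacks it, if either does, is settled neither by the labels nor by the Rptor transcript, whose levels are given with the libraries.

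The sequences just upstream of a few of these genes are given first, because SREBPs act there together with the factor NF-Y, which binds the CCAAT box. They are the 250 bases before the annotated start, from RefSeq on GRCm38.p6, the assembly that mm10 names, printed 5′ to 3′ on the strand of the gene. Capitals mark a sterol regulatory element searched as TCACNCCAC, its looser form TCACNCNAC, the E box CACGTG and the CCAAT box, on either strand. Srebf2 is shown as the regulator of the sterol arm. Hmgcs1 is shown as an enzyme at a like level in both groups, Mvk as an enzyme near absent from the KO-named libraries, and Cyp51 and Msmo1 as the sterol enzymes whose KO-named libraries both lay above both WT-named ones.
Srebf2, chr15:82147019-82147268, plus strand: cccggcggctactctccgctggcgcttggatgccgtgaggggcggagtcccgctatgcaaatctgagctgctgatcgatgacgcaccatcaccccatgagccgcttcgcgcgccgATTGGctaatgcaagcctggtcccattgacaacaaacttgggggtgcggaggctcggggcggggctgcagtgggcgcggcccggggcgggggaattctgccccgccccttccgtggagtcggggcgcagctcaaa
Hmgcs1, chr13:119690101-119690350, plus strand: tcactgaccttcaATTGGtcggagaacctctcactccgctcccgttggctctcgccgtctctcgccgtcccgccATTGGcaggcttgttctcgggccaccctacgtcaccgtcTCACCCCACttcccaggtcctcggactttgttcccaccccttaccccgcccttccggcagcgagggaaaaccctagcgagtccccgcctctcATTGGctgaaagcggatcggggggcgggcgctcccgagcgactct
Mvk, chr5:114444019-114444268, plus strand: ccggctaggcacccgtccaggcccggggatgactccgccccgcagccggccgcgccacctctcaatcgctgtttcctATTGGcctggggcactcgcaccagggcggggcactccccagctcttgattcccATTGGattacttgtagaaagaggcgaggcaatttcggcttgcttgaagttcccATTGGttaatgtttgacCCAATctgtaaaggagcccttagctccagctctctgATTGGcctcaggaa
Cyp51, chr5:4104698-4104947, minus strand: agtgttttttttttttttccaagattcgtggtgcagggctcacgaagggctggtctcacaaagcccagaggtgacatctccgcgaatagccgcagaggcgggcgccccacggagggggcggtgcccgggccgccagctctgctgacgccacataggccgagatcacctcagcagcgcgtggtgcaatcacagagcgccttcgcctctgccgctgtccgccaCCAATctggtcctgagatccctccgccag
Msmo1, chr8:64733579-64733828, minus strand: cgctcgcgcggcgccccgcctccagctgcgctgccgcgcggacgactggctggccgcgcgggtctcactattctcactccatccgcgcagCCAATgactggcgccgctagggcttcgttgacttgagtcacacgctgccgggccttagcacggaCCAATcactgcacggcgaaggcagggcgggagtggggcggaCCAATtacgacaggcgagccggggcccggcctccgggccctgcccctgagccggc

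Windows were found for 31 of the 38 genes. The strict element was present upstream of 1 of them, Hmgcs1, where it starts 137 bases before the start, against 1.22% of all 27025 genes with a window and 1.17% of the 8628 such genes in the table. The looser form also matched Nsdhl, and so 2 of 31 genes, against 2.65% of all genes and 2.70% of those in the table. The CCAAT box was upstream of 24 of the 31 genes (77.4%), against 37.5% of all genes and 40.3% of those in the table. Mvk held 5 copies, Hmgcs1 and Msmo1 3 each, and Srebf2 and Cyp51 1 each. The E box was upstream of 6 of 31 genes (19.4%), namely Scap, Insig1, Hsd17b7, Sc5d, Dhcr7 and Elovl5, against 6.86% of all genes and 9.68% of those in the table. The GC box GGGCGG, bound by Sp1, was upstream of 25 of 31 genes (80.6%), against 35.4% of all genes and 61.0% of those in the table. The 31 genes include some that are not in the table. Of the 24 in the table with a window, 19 had the CCAAT box, 6 the E box and 18 the GC box. These counts are the ones to set against the shares of genes in the table. These are matches of letters, and no match says only that the letters are not in this window.

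The KO-named libraries held 15258780 and 18856218 counts and the WT-named ones 18151479 and 17868376, for replicates 1 and 3. Levels are given as CPM, read counts divided by the library total after TMM scaling. Rptor itself was at 0.971 and 33.9 CPM in the KO-named libraries, against 14.5 and 76.8 CPM in the WT-named ones. The groups overlapped, with a log2 fold change of −1.39 ± 1.80 (SE, by edgeR, adjusted p = 0.906) that lay between −5.58 and 0.39 with a library left out. The 13 ILC2 markers on the list were all present and summed to 16139 to 19177 CPM in KO-named libraries, against 16862 to 20266 CPM in WT-named libraries. The 9 mast cell markers were all present too, at 7993 to 10575 CPM in KO-named and 6435 to 7820 CPM in WT-named libraries. Of 9 stromal markers, Gsn and Col1a2 were in the table, at a sum of 824.1 CPM in KO-named replicate 1 and at most 7.58 CPM in any other library. Of 12 adipocyte markers, Lipe and Pnpla2 were in the table, at a sum of 0.176 to 4.18 CPM in KO-named and 3.59 to 5.19 CPM in WT-named libraries. Of 13 proliferation markers, 9 were in the table, at a sum of 425.2 to 967.2 CPM in KO-named and 360.4 to 376.9 CPM in WT-named libraries, most of it Pcna in each library. The 2 macrophage markers present of 8 summed to 29.3 to 32.7 CPM in KO-named and 2.02 to 13.0 CPM in WT-named libraries. The 2 T cell markers present of 7, Cd3g and Cd3e, summed to 101.1 to 158.6 CPM in KO-named and 109.4 to 241.7 CPM in WT-named libraries. In a bulk sample fewer cells of a type and less RNA per cell cannot be told apart. The part of other cells in the results below was not tested.

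Single markers, chosen after their values were seen, set the groups further apart than these sums. Mki67, a marker of dividing cells, was at 169.3 and 86.1 CPM in the KO-named libraries, against 0.827 and 0.429 CPM in the WT-named ones. Its log2 fold change was 7.65 (SE 1.34, edgeR adjusted p = 0.433, unadjusted p = 0.000175) and lay between 7.09 and 8.16 with a library left out, and DESeq2 gave an adjusted p of 2.05e-12. Of the 8 proliferation markers tested, 3 including Mki67 had a log2 fold change above 0 and 5 below. Cd3e, a T cell receptor chain, had 0 reads in both KO-named libraries, against 131 and 222 reads in the WT-named ones (edgeR adjusted p = 0.433, DESeq2 adjusted p = 0.0397). Cd3g, another chain of that receptor, was at 158.6 and 101.1 CPM in the KO-named libraries, against 235.7 and 97.5 CPM in the WT-named ones, with overlap. Il5, an ILC2 cytokine and the locus that drives the Cre, was at 86.6 and 177.1 CPM in the KO-named libraries, against 542.2 and 320.9 CPM in the WT-named ones (log2 fold change −1.71, SE 0.56, edgeR adjusted p = 0.433). Of the 13 ILC2 markers, all tested, 6 had a log2 fold change above 0 and 7, including Il5, below, with a median of −0.0023. The KO-named pair was wholly above the WT-named pair in 3 of them and wholly below in 3, against 17.8% and 22.1% of all genes. The part of dividing cells and of T cells in the values of the SREBP pathway genes was not tested.

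None of the SREBP pathway genes had an edgeR adjusted p under 0.05, and neither did any of the 8753 genes tested (0%). The adjusted p of the 26 tested genes lay between 0.433 and 0.987. At an unadjusted p under 0.05 there were 3 of 26 genes, Mvk and Pmvk, lower in the KO-named libraries, and Fads1, higher there, against 9.81% of all genes tested (6.34% lower and 3.47% higher). The number changed with a library left out, where the share of all genes was not determined. At the same threshold DESeq2 gave 9 of the 26 genes (13.5% of all genes), limma-voom 7 (12.2%) and edgeR with the replicate block 3 (8.08%). After adjustment each of these gave 0 of 26, against 4.2% of all genes by DESeq2, 2.3% by limma-voom and 0.286% with the block. DESeq2 on the unfiltered table, an alternative added after the data were seen, passed 5 of the 29 genes, against 8.7% of all genes. These were Mvk, Pmvk, Hsd17b7 and Ebp, lower in the KO-named libraries (6.42% of all genes passed in that direction), and Fads1, higher there (2.29%). A gene near absent from a group enters the test only through the other group, so the tested genes do not stand for the whole set.

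**Figure D1:**
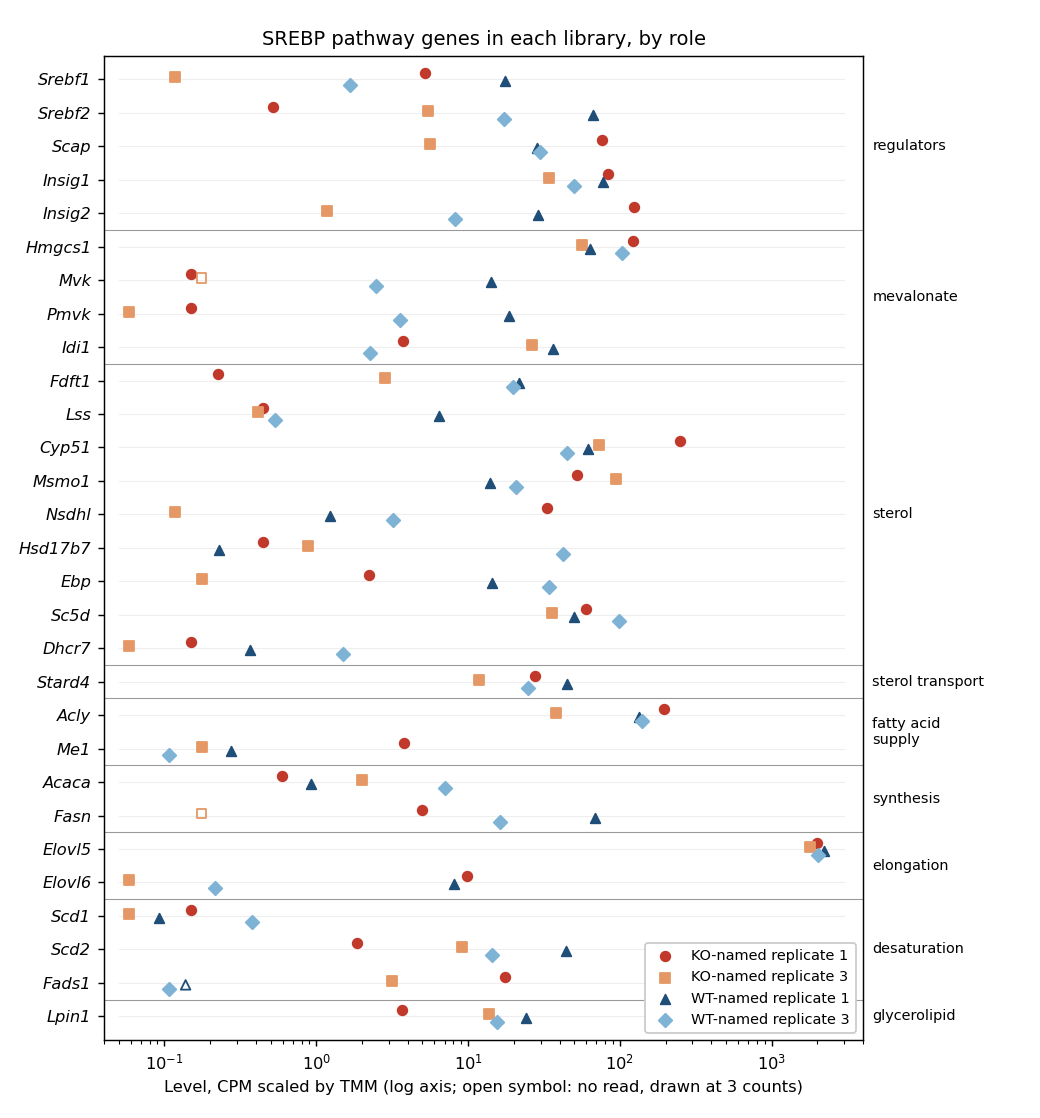
Level of each of the 29 genes in the table in each of the 4 libraries, in CPM on a log axis, ordered by role. Open symbols mark a library without a read. Points of a group are often as far apart as the groups are: Insig2 had 123.3 and 1.17 CPM in the KO-named libraries, against 29.0 and 8.16 CPM in the WT-named ones, while Elovl5 lay between 1781 and 2212 CPM in all 4.

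Of the 5 regulators 3 had a log2 fold change below 0 and 2 above, and in Srebf2 alone did the groups not overlap. Srebf2 (Entrez 20788, chromosome 15, 82147269 to 82205379, mm10), which encodes SREBP-2, was at 0.523 and 5.46 CPM in the KO-named libraries, against 66.5 and 17.1 CPM in the WT-named ones. Both KO-named libraries lay below both WT-named ones, and the log2 fold change was −3.80 (SE 2.02, edgeR adjusted p = 0.616). It kept its direction with each library left out, between −6.30 and −2.52. Srebf1, which encodes SREBP-1, was scarce, at 0.117 to 5.23 CPM in the KO-named libraries, against 1.66 to 17.4 CPM in the WT-named ones, and its log2 fold change of −1.83 was 0.64 without WT-named replicate 1. The groups overlapped.

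Scap, the escort protein of the SREBPs, was at 76.5 and 5.57 CPM in the KO-named libraries, against 28.6 and 29.9 CPM in the WT-named ones. The KO-named libraries thus lay on either side of the WT-named pair, which differed by 1.05-fold, and the log2 fold change of 0.49 (SE 1.53) was −2.38 without KO-named replicate 1. Insig1 (chromosome 5, 28071412 to 28078662), both a retention protein and a sensitive SREBP target, was at 83.9 and 34.1 CPM in the KO-named libraries, against 77.7 and 50.2 CPM in the WT-named ones. Its log2 fold change was −0.12 (SE 1.03), less than its error. Insig2, the other retention protein, had its highest level, 123.3 CPM, in KO-named replicate 1 and its lowest, 1.17 CPM, in KO-named replicate 3, against 29.0 and 8.16 CPM in the WT-named libraries. Its log2 fold change was 1.74 with all libraries and −3.96 without KO-named replicate 1. That library also held the stromal transcripts, and the part of stromal cells in the Insig2 level was not tested.

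In the mevalonate pathway, which builds isoprenoid units from acetyl-CoA, the groups overlapped in Hmgcs1 and Idi1 and lay apart in Mvk and Pmvk. Hmgcs1 (Entrez 208715, chromosome 13, 119690351 to 119708260), the cytosolic HMG-CoA synthase, was at 122.7 and 56.2 CPM in the KO-named libraries, against 63.7 and 103.9 CPM in the WT-named ones. The groups overlapped and the log2 fold change was 0.09 (SE 0.85). Scaled by library size alone it was −0.22.

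Mvk and Pmvk encode the kinases that phosphorylate mevalonate in successive steps, and both were near absent from the KO-named libraries. Mvk (Entrez 17855, chromosome 5, 114444264 to 114460591) had 2 and 0 reads in the KO-named libraries, against 308 and 46 reads in the WT-named ones. In CPM these were 0.149 and 0 in the KO-named libraries, against 14.2 and 2.47 in the WT-named ones. The pooled level was 133-fold lower in the KO-named libraries, with an exact 95% counting interval of 36.6-fold to 1105-fold. Pmvk (Entrez 68603, chromosome 3, 89454541 to 89469014) had 2 and 1 reads in the KO-named libraries, against 402 and 66 reads in the WT-named ones, or 0.149 and 0.0587 CPM against 18.5 and 3.54 CPM. Its pooled level was 118-fold lower, with an interval of 40.0-fold to 572-fold. The intervals cover counting error only, and not the spread between libraries. Reads that carry no molecular identifier can be copies of 1 molecule, so the intervals may be too narrow even for counting error. In both genes WT-named replicate 1 was over 5 times WT-named replicate 3.

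The fitted log2 fold changes were −6.73 for Mvk (SE 2.56, edgeR adjusted p = 0.439) and −6.65 for Pmvk (SE 2.48, edgeR adjusted p = 0.433). Both kept their direction with each library left out. By DESeq2 on the unfiltered table the adjusted p was 0.00314 for Mvk and 0.00115 for Pmvk, and with the filter it was 0.198 and 0.0819. Idi1, the isomerase that makes dimethylallyl diphosphate, followed neither group: it was at 3.73 and 26.2 CPM in the KO-named libraries, against 36.3 and 2.25 CPM in the WT-named ones. KO-named replicate 3 and WT-named replicate 1 were the high libraries, and the log2 fold change of −0.36 was 2.72 without WT-named replicate 1.

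Along the sterol pathway, from squalene to cholesterol, Fdft1, Lss and Ebp had both KO-named libraries below both WT-named ones, and Cyp51 and Msmo1 had both above. Fdft1, squalene synthase, was at 0.224 and 2.82 CPM in the KO-named libraries, against 21.6 and 19.7 CPM in the WT-named ones. The groups lay apart and the log2 fold change was −3.76 (SE 2.24, edgeR adjusted p = 0.677). Lss, which cyclises squalene epoxide to lanosterol, was scarce, at 0.411 to 0.448 CPM in the KO-named and 0.537 to 6.43 CPM in the WT-named libraries, and its log2 fold change of −3.00 was −0.34 without WT-named replicate 1.

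Cyp51 and Msmo1 both act in the demethylation of lanosterol, Cyp51 as the 14-demethylase and Msmo1 as the 4-methyl oxidase. They were the sterol enzymes at a higher level in both KO-named libraries. Cyp51 (Entrez 13121, chromosome 5, 4080674 to 4104697) was at 248.6 and 72.3 CPM in the KO-named libraries, against 61.6 and 44.9 CPM in the WT-named ones. KO-named replicate 1 stood far above the rest, and the log2 fold change was 1.59 (SE 0.84, edgeR adjusted p = 0.613) and 0.45 without that library. Msmo1 (Entrez 66234, chromosome 8, 64718123 to 64733578) was at 52.1 and 93.5 CPM in the KO-named libraries, against 13.9 and 20.8 CPM in the WT-named ones. Here KO-named replicate 3 was the higher, and the log2 fold change was 2.07 (SE 1.24, edgeR adjusted p = 0.678), and between 1.57 and 2.48 with any library left out. Both KO-named libraries were above both WT-named ones in these 2 genes and in Fads1, so in 3 of 26, against 17.8% of all genes tested.

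Nsdhl, the sterol dehydrogenase of the next step, was high in a single library: it had 33.0 CPM in KO-named replicate 1, and 0.117 to 3.22 CPM in the other 3. The log2 fold change of 2.89 was −4.17 without that library. Hsd17b7, the 3-ketosteroid reductase, was at 0.448 and 0.880 CPM in the KO-named libraries, against 0.230 and 41.9 CPM in the WT-named ones. Its level was thus high in WT-named replicate 3 alone, and the log2 fold change of −4.97 was 1.60 without that library, although DESeq2 on the unfiltered table passed it (adjusted p = 0.0462).

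Ebp (Entrez 13595, chromosome X, 8185329 to 8193512), the isomerase that shifts the ring double bond, was at 2.24 and 0.176 CPM in the KO-named libraries, against 14.4 and 33.9 CPM in the WT-named ones. The groups lay apart, the log2 fold change was −4.32 (SE 2.30, edgeR adjusted p = 0.620), and DESeq2 on the unfiltered table gave an adjusted p of 0.0320. Sc5d, the desaturase that acts next, was at 59.9 and 35.8 CPM in the KO-named libraries, against 49.8 and 98.8 CPM in the WT-named ones. These overlapped, with a log2 fold change of −0.63 (SE 1.02). Dhcr7, the final reductase, had 2 and 1 reads in the KO-named libraries, against 8 and 28 in the WT-named ones, and was not tested. Stard4, which carries sterol between membranes, was at 27.7 and 11.9 CPM in the KO-named libraries, against 44.9 and 24.8 CPM in the WT-named ones, with overlap and a log2 fold change of −0.82 (SE 1.55).

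**Figure D2:**
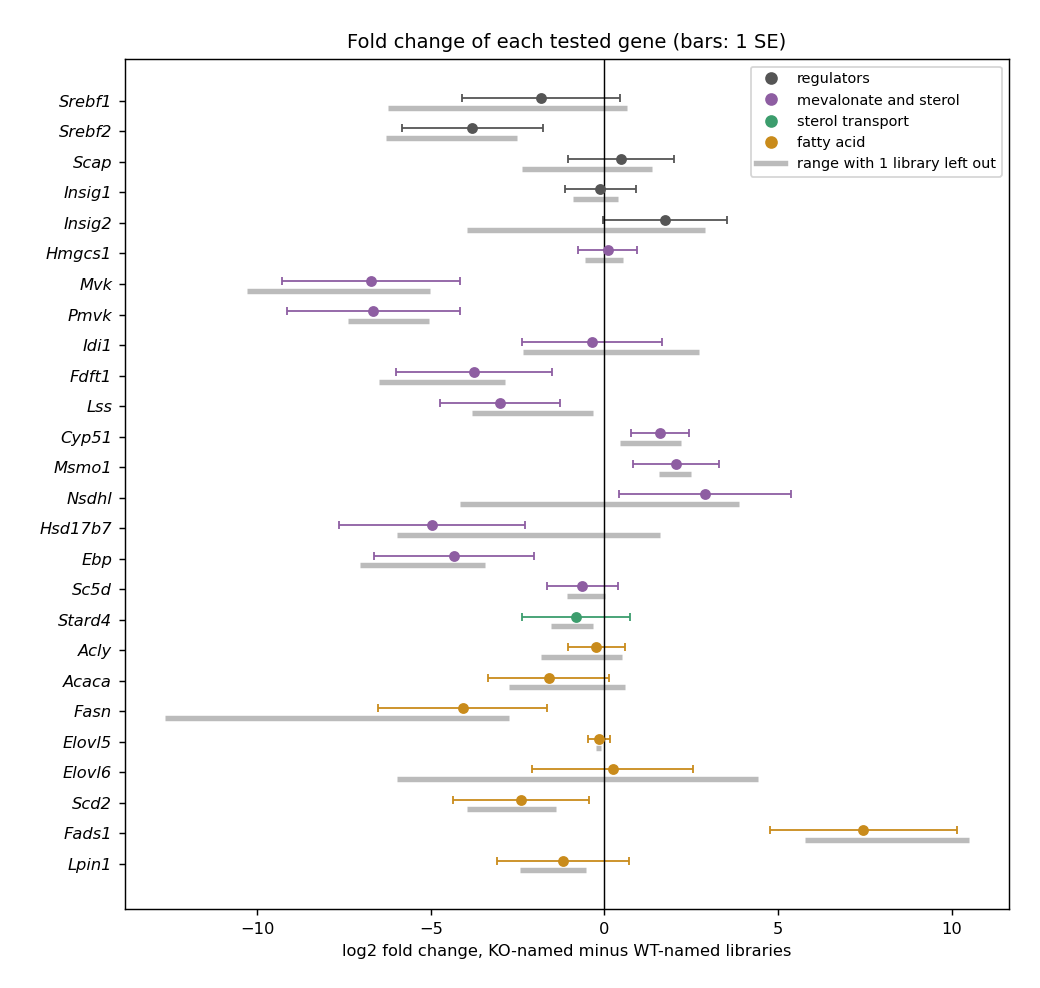
Log2 fold change, KO-named minus WT-named, of the 26 tested genes by edgeR, with bars of 1 SE and, in grey, the range when each library is left out. Mvk and Pmvk lie lowest at −6.73 and −6.65 and Fads1 highest at 7.45, and the grey range crosses 0 for 12 of the 26 genes.

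In the fatty acid arm the elongase Elovl5 dominated every library. Elovl5 (Entrez 68801, chromosome 9, 77917365 to 77984519), which lengthens polyunsaturated fatty acids, was at 1995 and 1781 CPM in the KO-named libraries, against 2212 and 2004 CPM in the WT-named ones. The libraries of a group differed by 1.12-fold and 1.10-fold, and the log2 fold change was −0.16 (SE 0.31, edgeR adjusted p = 0.948). Elovl5 made up 89.5% and 96.4% of the summed CPM of the arm in the KO-named libraries and 88.8% and 91.2% in the WT-named ones. Per transcript length, on the authors' TPM scale, which was used for the libraries numbered 1 only, Elovl5 was at 912.1 TPM in the KO-named library and 1416 TPM in the WT-named one. The next genes by mean TPM over these libraries were Acly at 53.3, Cyp51 at 47.1, Insig1 at 45.7, Insig2 at 39.1, Hmgcs1 at 37.8 and Sc5d at 34.0 TPM. Cyp51 itself had 70.0 TPM in the KO-named and 24.2 TPM in the WT-named library, so the order of these 6 is within the spread. Scd1 was last, at 0.04 and 0.03 TPM.

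Acly (chromosome 11, 100476352 to 100528000), the citrate lyase that supplies cytosolic acetyl-CoA to both arms, was at 196.0 and 38.1 CPM in the KO-named libraries, against 133.9 and 140.7 CPM in the WT-named ones. The KO-named libraries enclosed the WT-named pair, with a log2 fold change of −0.23 (SE 0.82). Me1, malic enzyme and a source of NADPH, had 51 reads in KO-named replicate 1 and at most 6 elsewhere, and was not tested. Acaca, the acetyl-CoA carboxylase that commits carbon to fatty acids, was scarce, at 0.598 to 1.99 CPM in the KO-named and 0.919 to 7.03 CPM in the WT-named libraries, with overlap and a log2 fold change of −1.61 that was 0.60 without WT-named replicate 3.

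Fasn (Entrez 14104, chromosome 11, 120805958 to 120825166), fatty acid synthase, was at 5.0 and 0 CPM in the KO-named libraries, against 68.3 and 16.3 CPM in the WT-named ones. In KO-named replicate 3 the absence of reads allows up to 0.176 CPM, the level of 3 counts. The groups lay apart, with a log2 fold change of −4.08 ± 2.43 (SE, by edgeR, adjusted p = 0.675). Left-out libraries moved it between −12.65 and −2.74, the first without KO-named replicate 1, where the remaining KO-named library has no read.

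The desaturases differed from each other. Scd2, a stearoyl-CoA desaturase, was at 1.87 and 9.15 CPM in the KO-named libraries, against 43.9 and 14.4 CPM in the WT-named ones, a log2 fold change of −2.40 (SE 1.95). Its paralogue Scd1, abundant in adipocytes, had 1 to 7 reads in any library. Fads1 (Entrez 76267, chromosome 19, 10182877 to 10196874), the delta-5 desaturase, went the other way. It had 235 and 54 reads in the KO-named libraries, against 0 and 2 reads in the WT-named ones, or 17.6 and 3.17 CPM against 0 and 0.107 CPM. Its pooled level was 192-fold higher in the KO-named libraries, with an exact 95% counting interval of 52.6-fold to 1591-fold. This interval too covers counting error only, and not the spread between libraries. The log2 fold change was 7.45 (SE 2.70, edgeR adjusted p = 0.433), and the DESeq2 adjusted p was 0.000891 on the unfiltered table and 0.0570 with the filter.

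Elovl6, which lengthens saturated fatty acids, split each group: it had 9.78 CPM in KO-named replicate 1 and 8.13 CPM in WT-named replicate 1, and at most 0.215 CPM in both replicates numbered 3. Lpin1, which encodes lipin 1, a phosphatidate phosphatase that mTORC1 is known to keep out of the nucleus, was at 3.66 and 13.7 CPM in the KO-named libraries, against 23.9 and 15.6 CPM in the WT-named ones. The groups did not overlap, with a log2 fold change of −1.19 (SE 1.90). In all, both KO-named libraries lay below both WT-named ones in 10 of the 26 tested genes, against 22.1% of all genes tested. These were Srebf2, Mvk, Pmvk, Fdft1, Lss, Ebp, Fasn, Elovl5, Scd2 and Lpin1. The gap between the groups was small in some of them. Between KO-named replicate 1 and WT-named replicate 3 it was 1995 against 2004 CPM in Elovl5 and 0.448 against 0.537 CPM in Lss.

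Set side by side, the arms had medians on the same side of 0. The median log2 fold change was −1.82 over the 12 tested genes of the mevalonate and sterol arm, 8 of them below 0, and −0.71 over the 8 of the fatty acid arm, 6 of them below 0. The sterol arm median was −3.05 without KO-named replicate 1, −1.07 without WT-named replicate 1 and −0.58 without WT-named replicate 3, and that of the fatty acid arm −1.32 without KO-named replicate 1 and −0.090 without KO-named replicate 3. Over all genes tested the median was 0.05 and 48.6% were below 0. The difference of the arm medians, sterol minus fatty acid, was −1.11, between −2.53 and −0.42 with a library left out. Among genes with a mean of at least 10 CPM it turned to 0.69. In each library the mean log2(CPM + 1) of the sterol arm was below that of the fatty acid arm, with differences of −1.04 and −0.68 in the KO-named libraries, against −0.84 and −0.32 in the WT-named ones. These averaged −0.86 ± 0.25 in the KO-named and −0.58 ± 0.36 in the WT-named libraries (SD, n = 2 each), and the groups overlapped. This order of the arms rested on Elovl5. With Elovl5 left out, the differences were −0.068 and 0.379 in the KO-named libraries, against 0.060 and 0.643 in the WT-named ones. The sterol arm was then lower in KO-named replicate 1 alone.

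Both arms taken alone had lower means in the KO-named libraries. The mean log2(CPM + 1) of the sterol arm was 3.11 and 2.70 in the KO-named libraries, against 3.98 and 3.88 in the WT-named ones, and that of the fatty acid arm was 4.15 and 3.38, against 4.82 and 4.21. The mean over all genes tested moved the same way, at 4.23 and 4.36 in the KO-named libraries, against 4.69 and 4.53 in the WT-named ones. Of all genes tested 19.7% and 14.6% had 10 or fewer reads in the KO-named libraries, against 3.70% and 8.95% in the WT-named ones. Of the 26 SREBP pathway genes 7 and 8 did so in the KO-named libraries, against 2 and 3 in the WT-named ones. The part of this difference in detected genes in the fold changes was not tested.

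Summed levels gave another order than the medians. The sterol arm summed to 523.6 and 288.5 CPM in the KO-named libraries, against 301.9 and 375.9 CPM in the WT-named ones, a log2 ratio of the means of 0.26. Scaled by library size alone, the ratio was −0.07, and without KO-named replicate 1 it was −0.22. The sum rested on 4 enzymes, Cyp51, Hmgcs1, Sc5d and Msmo1, which made up 92.3% and 89.4% of it in the KO-named libraries, against 62.6% and 71.4% in the WT-named ones. Without Elovl5 the fatty acid arm summed to 234.4 and 66.2 CPM in the KO-named libraries, against 279.0 and 194.4 CPM in the WT-named ones. Acly was the largest part of it in each library, and KO-named replicate 3 was the low library.

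**Figure D3:**
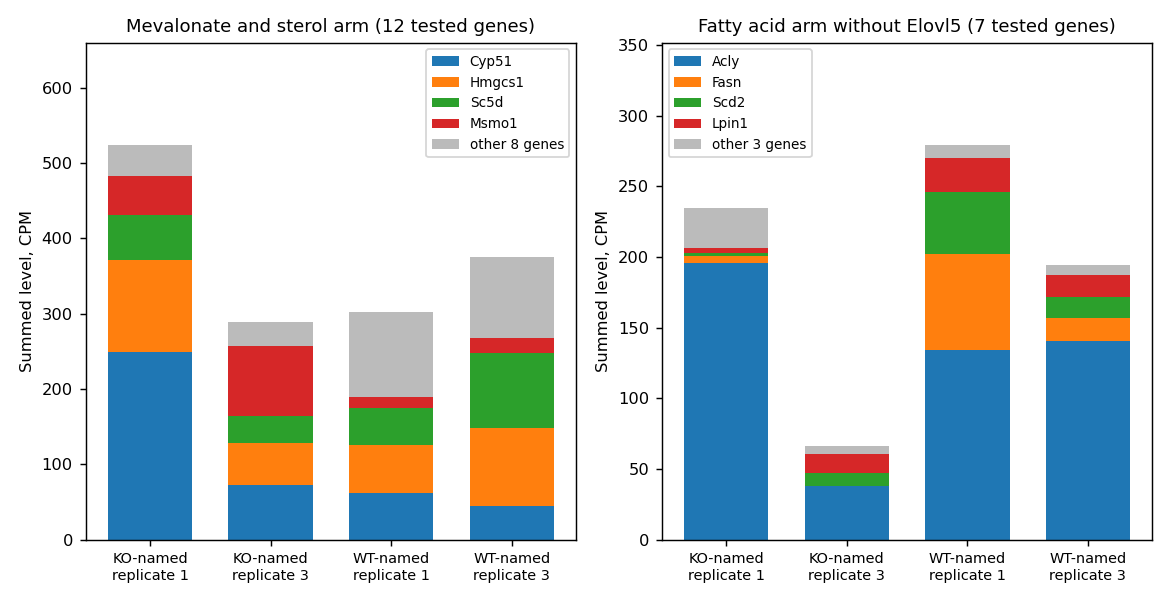
Summed CPM of the 12 tested genes of the mevalonate and sterol arm and of the 7 of the fatty acid arm other than Elovl5, in each library, with the leading genes as colours. Cyp51 fills much of KO-named replicate 1, Msmo1 leads in KO-named replicate 3, and the grey share of the other 8 sterol genes is larger in both WT-named libraries.

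Libraries of a group differed from each other about as much as the groups did, among SREBP pathway genes as among all genes. The median absolute difference in log2(CPM + 1) over the 26 genes was 1.65 between the KO-named libraries and 1.08 between the WT-named ones, against 1.27 between the group means. Over all genes tested the same values were 1.19, 0.86 and 0.93. In 17 of the 26 genes the wider within-group difference exceeded the difference between the groups (65.4%), against 72.7% of all genes tested. Single libraries vary more than group means, so the within-group values tend to be larger even where the groups do not differ. The highest library was KO-named replicate 1 for 9 genes, KO-named replicate 3 for 1, WT-named replicate 1 for 12 and WT-named replicate 3 for 4. Over all genes tested these libraries were highest for 30.7%, 24.2%, 22% and 23.1%. KO-named replicate 3 was lowest for 16 of the 26, against 28.3% of all genes tested. Of the 26 genes 13 had 10 or fewer reads in at least 1 library (50%), against 32.6% of all genes tested. Among genes with a mean of at least 10 CPM this was 5 of 18, against 18% of such genes.

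**Figure D4:**
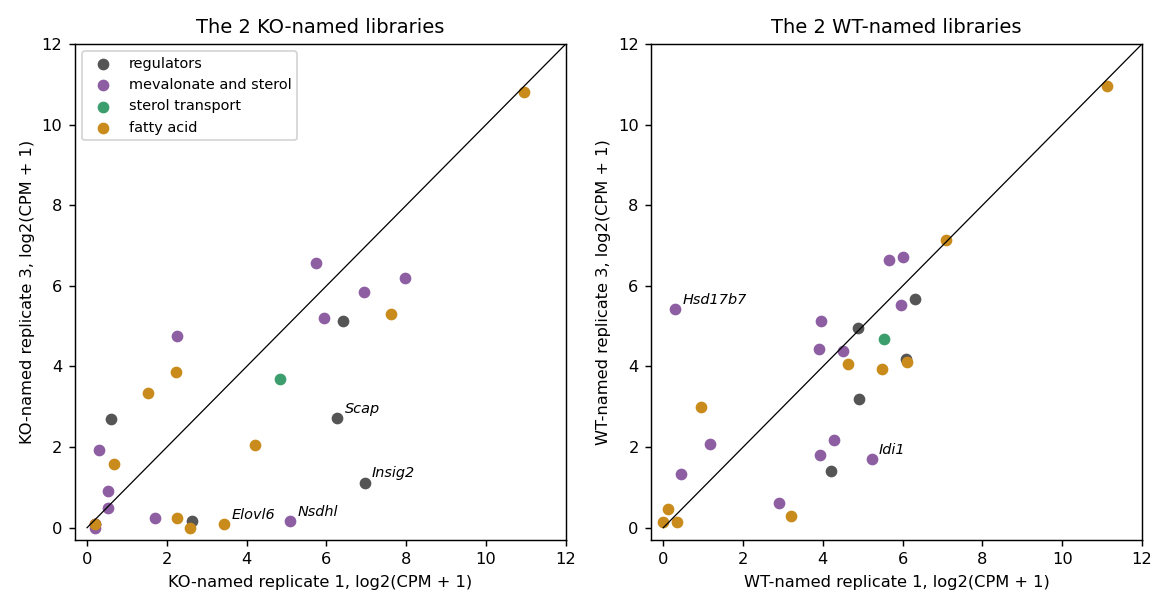
Log2(CPM + 1) of the 29 genes in replicate 3 against replicate 1, for the KO-named libraries on the left and the WT-named ones on the right, with the line of equal values. Insig2, Nsdhl, Scap and Elovl6 lie far below the line on the left and Hsd17b7 far above it on the right, while Elovl5 lies on it in both.

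Other genes of the pathway were taken from lists chosen by name, and none of their members passed edgeR's adjusted p. DESeq2 with the same filter passed 1 of 19 tested genes of SREBP processing and turnover, Rnf139 (adjusted p = 0.0418). It passed 1 of 17 of sterol transport and storage, Stard3 (0.000724). Of fatty acid activation and glycerolipid synthesis it passed 1 of 19, Lpin2 (0.00925), and of isoprenoid use 0 of 8. Of all genes 4.2% passed. DESeq2 on the unfiltered table passed these 3 and also Agpat4, Dgat2, Fntb and Pggt1b, named after their values were seen, against 8.7% of all genes. By list, in the same order, these were 1 of 19, 1 of 18, 3 of 21 and 2 of 10 genes in the table. Of 19 tested genes of SREBP processing and turnover, 7 had a log2 fold change above 0 and 12 below, with a median of −0.47, where 48.6% of all genes were below 0. An unadjusted p under 0.05 was found for 3 of the 19, against 9.81% of all genes. Sec24a, a cargo adaptor of the COPII coat that carries Scap and SREBP to the Golgi, was at 153.6 and 234.9 CPM in the KO-named libraries, against 61.8 and 45.9 CPM in the WT-named ones (log2 fold change 1.85, SE 0.71, edgeR adjusted p = 0.439). Sar1b, a GTPase of the same coat, was at 305.7 and 229.8 CPM, against 144.3 and 54.7 CPM in the WT-named libraries (edgeR adjusted p = 0.508). Rnf139, a ubiquitin ligase of the endoplasmic reticulum, was at 0.672 and 0.176 CPM in the KO-named libraries, against 19.3 and 19.2 CPM in the WT-named ones (edgeR adjusted p = 0.486). Among the most abundant of this list were also Sar1a at a log2 fold change of 0.18 and the heme-binding protein Pgrmc1 at 0.94.

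Of 17 tested genes of sterol transport and storage, 8 were above 0 and 9 below, with a median of −0.54. The KO-named pair was wholly above the WT-named pair in 6 of the 17 and wholly below in 3, against 17.8% and 22.1% of all genes. Lbr and Stard3 had an unadjusted p under 0.05, so 2 of 17 against 9.81% of all genes. Lbr, the lamin B receptor, which also reduces a sterol double bond next after Cyp51, was at 537.9 and 447.9 CPM in the KO-named libraries, against 250.8 and 251.6 CPM in the WT-named ones (log2 fold change 0.97, SE 0.43, edgeR adjusted p = 0.501). Soat1, which esterifies cholesterol for storage, was at 205.5 and 187.3 CPM in the KO-named libraries, against 83.2 and 90.8 CPM in the WT-named ones (edgeR adjusted p = 0.625). Stard3, a sterol carrier of late endosomes, was at 25.2 and 48.8 CPM in the KO-named libraries, against 0.643 and 0.751 CPM in the WT-named ones (log2 fold change 5.72, SE 2.12, edgeR adjusted p = 0.433). Osbpl9, an oxysterol-binding protein relative, had a log2 fold change of 0.67. Cyp51, Msmo1, Lbr, Soat1 and Stard3 thus all had both KO-named libraries above both WT-named ones, a group picked after the values were seen.

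Of 19 tested genes of fatty acid activation and glycerolipid synthesis, 3 were above 0 and 16 below, with a median log2 fold change of −0.78, where 48.6% of all genes were below 0. In 8 of them both KO-named libraries lay below both WT-named ones and in none above, against 22.1% and 17.8% of all genes. Dgat1 and Lpin2 had an unadjusted p under 0.05, so 2 of 19 against 9.81% of all genes. Dgat1, which makes triglyceride, was at 535.2 and 389.9 CPM in the KO-named libraries, against 1158 and 653.1 CPM in the WT-named ones (edgeR adjusted p = 0.505). Lpin2, a paralogue of Lpin1, was at 0.598 and 0.645 CPM in the KO-named libraries, against 31.1 and 23.3 CPM in the WT-named ones (log2 fold change −5.43, SE 2.23, edgeR adjusted p = 0.464). Acsl4, which activates polyunsaturated fatty acids, had a log2 fold change of −0.34, and Hacd3, a dehydratase of the elongation cycle, of −1.06.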

How the data were processed

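Transcripts were measured by RNA-seq of sorted adipose ILC2 in 4 libraries (Smart mRNA-seq kit, per the labels). The submitters' processing notes name the build mm10. The sources used here name neither aligner nor counter. The authors deposited estimated counts per gene, which were rounded to whole counts, and TPM values, of which those of the libraries numbered 1 were used to order levels between genes. Per the file headers, the deposited table also holds the authors' DESeq2 comparison, as log2 fold changes with p-values and q-values. Another 10 per-sample columns were left out, among them the TPM of the libraries numbered 3. The column names tie these libraries to a group, and no label ties them to a sample. This also holds for their count columns, which were used in the tests. Reads of Srebf1, Idi1 and Fdft1 were deposited as non-whole counts, so reads shared with other features may have been split there.

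The table was tested whole with edgeR 4.0.16 in R 4.3.3 (quasi-likelihood test, TMM scaling, filterByExpr, Benjamini-Hochberg adjustment over 8753 genes). Each SE is the size of the log2 fold change over the square root of F. Alternatives were RLE factors, library size alone, no filter, DESeq2 1.42.0, limma-voom (limma 3.58.1), the replicate number as a block, and each library left out. The scripts were checked on simulated data. Libraries of a group differed far beyond counting noise, at a chi-square per degree of freedom of 444.7 (KO-named pair) and 273.5 (WT-named pair), and were all kept as replicates. A count of 0 allows up to 0.138 to 0.224 CPM, the level of 3 counts.

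Genes and lists were chosen with earlier results of these data known. All 38 genes are named, with values in each library at a mean of at least 10 CPM or an unadjusted p under 0.05, and ranges otherwise. Of the pathway lists the 3 most abundant tested genes and those at an unadjusted p under 0.05 are named, and of the marker lists those that show how libraries stand apart.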

Additional observations from a re-analysis of the deposited data

How the results depend on the processing

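With 2 libraries per group an exact permutation test cannot go below 0.333, so calls rest on the fit across genes. With 1 library left out, the lone library is assumed to vary like the other group. By edgeR's adjusted p 0 genes passed with all libraries, with RLE factors, with library size alone and with no filter, and 0 to 7 with a library left out. DESeq2 passed 368 genes, DESeq2 with no filter 952 and limma-voom 201. The sources used here state no pairing by replicate number. Deviations from the group means of same-numbered libraries correlated at −0.0071. With 2 libraries per group the deviations mirror each other, so this value cannot show whether libraries were paired. With the replicate block 25 genes passed and no SREBP pathway gene.

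SREBP pathway genes past an unadjusted p numbered 3 with all libraries (9.81% of all genes), 9 by DESeq2 (13.5%), 8 by DESeq2 with no filter (15.4%), 7 by limma-voom (12.2%) and 1 to 6 with a library left out. After adjustment 5 passed by DESeq2 with no filter (8.7% of all genes) and 0 in every other fit. The median of all genes was 0.05 with TMM, 0.13 with RLE and −0.28 with library size alone.

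The sterol arm median was −2.17 with library size alone, −3.10 with no filter, −2.99 by DESeq2 with no filter, −1.31 by limma-voom, −1.36 with the replicate block, −0.50 at a mean of at least 10 CPM and −3.05 to −0.58 with a library left out. The fatty acid arm median was −1.32 to −0.090 and that of the regulators −2.92 to 0.42 with a library left out. The arm difference was −2.30 with no filter, −2.28 by DESeq2 with no filter, −0.30 by limma-voom, −0.41 with the replicate block, 0.69 at a mean of at least 10 CPM and −2.53 to −0.42 with a library left out. The summed ratio of the fatty acid arm was −0.54 with library size alone, and that of the sterol arm −0.22 to 0.61 with a library left out.

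Of 26 genes 14 kept their sign with each library left out. The other 12 ranged from −2.75 to 0.60 (Acaca), −1.84 to 0.50 (Acly), −5.98 to 4.43 (Elovl6), −0.57 to 0.54 (Hmgcs1), −5.98 to 1.60 (Hsd17b7), −2.35 to 2.72 (Idi1), −0.89 to 0.39 (Insig1), −3.96 to 2.89 (Insig2), −4.17 to 3.86 (Nsdhl), −1.07 to 0.0015 (Sc5d), −2.38 to 1.37 (Scap) and −6.25 to 0.64 (Srebf1). By other settings Hmgcs1 was −0.22 with library size alone, −0.022 with no filter and −0.0060 by limma-voom, and Elovl6 was −0.21 with library size alone, −0.39 by limma-voom and −0.59 with the replicate block. By limma-voom and with the replicate block Scap was −0.71 and −0.50, Insig2 −0.68 and −0.32, and Idi1 0.12 and 0.13. The cause of these changes was not tested.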

Other observations

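The mevalonate pathway also feeds branches other than sterol. Of 8 tested genes of isoprenoid use, 5 had a log2 fold change above 0 and 3 below, and none had an unadjusted p under 0.05, against 9.81% of all genes. Pggt1b, a subunit of a geranylgeranyl transferase that DESeq2 passed on the unfiltered table (adjusted p = 0.0175), was at 0.149 and 53.3 CPM in the KO-named libraries, against 0.322 and 0.644 CPM in the WT-named ones, and so high in KO-named replicate 3 alone. Its log2 fold change of 5.77 was −1.66 without that library. Nus1, a subunit of the enzyme that makes dolichol, was at 73.6 and 126.5 CPM in the KO-named libraries, against 45.3 and 39.6 CPM in the WT-named ones (log2 fold change 1.24, SE 0.93, edgeR adjusted p = 0.776). Ggps1, which makes geranylgeranyl diphosphate, was at 9.04 and 73.3 CPM in the KO-named libraries, against 56.5 and 38.9 CPM in the WT-named ones, and Fnta, a subunit shared by protein prenyltransferases, at 5.90 and 45.8 CPM, against 40.8 and 7.57 CPM. In both genes KO-named replicate 1 was low and the groups overlapped.

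The fold changes in the authors' deposited table differ from those of the 4 count columns for part of the genes. The column is named WT versus KO, yet its sign was that of KO-named minus WT-named in 9049 of 10940 genes (82.7%) and in 24 of the 29 SREBP pathway genes, when set against DESeq2 on the unfiltered counts. It differed by over 1 on the log2 scale for 27.4% of all genes and for 9 of the 29. For Fdft1, the authors' deposited table gives 0.24, whereas DESeq2 on the counts gave −3.70 and both KO-named libraries lay far below both WT-named ones. For Pmvk, the authors' deposited table gives −0.79 (q = 0.995), against −6.75 on the counts, for Fasn −0.49 against −4.14, and for Lss 0.04 against −2.99. For Mvk, the authors' deposited table gives −8.28 (q = 0.000283), against −6.90 on the counts, and this was the 1 gene of the 29 with a deposited q under 0.05. Fads1 has 4.73 there (q = 0.171), against 7.56 on the counts. For Cyp51 and Msmo1, the authors' deposited table gives 1.66 and 2.08, close to 1.55 and 2.08 on the counts. Which libraries entered the deposited comparison was not stated in the sources used here.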
